A study of Mus musculus with 4 samples.

Results

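The genes of excitation-contraction coupling and calcium signalling were examined for peaks of histone 3 phosphorylated at serine 10 (H3S10ph) in mouse gastrocnemius muscle. The genes were chosen by function and not by their peaks, although earlier results of these data were known. They were 37 of the 21951 protein-coding genes of the annotation. For each gene the peaks that met its annotated body, from the first to the last annotated base on mm10, were taken from each of the 4 deposited peak lists. The lists held 243 such peaks in all, 31 and 55 in unstimulated muscle and 24 and 133 in stimulated muscle. All 37 genes lie on autosomes, and 20807 autosomal protein-coding genes served as the background. The 37 genes were long, with a median length of 59.2 kb against 17.6 kb for that background, and a longer gene meets more peaks, so counts of genes with a peak are also set beside genes of like length, meaning background genes of 0.8 to 1.2 times the length of the gene in question.

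Contraction of a muscle fibre begins when the action potential spreads into the T-tubules, where the voltage sensor, a calcium channel complex, is coupled to the ryanodine receptor of the sarcoplasmic reticulum. The receptor releases calcium from the store, and calcium pumps return it and so end the contraction. The same calcium binds calmodulin, which activates CaM kinases and the phosphatase calcineurin, and calcineurin lets NFAT transcription factors enter the nucleus. H3S10ph is known from condensed chromosomes of dividing cells and, in cells that do not divide, from genes switched on rapidly by kinase signalling.

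H3S10ph was mapped by ChIP-seq in gastrocnemius muscles of male C57BL/6 mice aged 5 months. The stimulated muscles performed 50 eccentric contractions under anaesthesia, evoked by stimulation at 100 Hz for 600 ms with 30 s between them, while the foot was moved through 30 degrees at 40 mm per s, and they were frozen immediately afterwards. The unstimulated muscles were the contralateral muscles of the same anaesthetised animals, so they are a control from the other leg and not from resting mice. For stimulation, the study's methods describe an incision, wires fixed beside the sciatic nerve and a cut of the common peroneal nerve. They describe no such surgery on the other leg, so surgery and contractions cannot be told apart. There were 2 samples per condition and each was a pool of gastrocnemius muscles from 6 mice, so a list gives no spread between mice, and a whole muscle also holds nuclei of cells other than fibres. Peaks had been called in each sample separately, and the lists are named below by condition and replicate, as unstimulated 1 and 2 and stimulated 1 and 2.

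The 4 lists differed in length more between replicates than between conditions. Unstimulated 1 held 9094 peaks, unstimulated 2 held 32740, stimulated 1 held 10901 and stimulated 2 held 40683. All lists reached down to a −log10 p of about 2, and the median −log10 p was 2.57, 2.19, 2.62 and 2.20 in the same order. The study's methods name a calling cutoff that equals a −log10 p of 3. A listed value of 3 was reached by 12.9%, 2.93%, 17.7% and 3.22% of the peaks, so most peaks used here had a lower one. How the value listed for a broad peak relates to that cutoff could not be settled from the lists. Peaks whose −log10 p reached 2.5 were nearly equal in number within a condition, at 5541 and 5416 for the unstimulated and at 7151 and 7112 for the stimulated lists. The number of reads behind a peak is not given in the lists, so the depth itself is unknown. By the study's methods the replicates had been sampled down to equal read numbers before calling. Why the replicate lists still differ in length was not tested. A gene without a peak is a gene without a call. Unstimulated 1 stood apart from the other lists in its chromosomes, with 522 peaks on chromosome X and 0 on chromosome Y against 19, 19 and 16 on X and 7, 6 and 6 on Y, although the labels describe all mice as male. Why this list differs was not tested, nor whether its condition label and input control are right. The main counts that rest on it are given with and without it. With 2 samples against 2 the exact permutation test cannot go below a two-sided p of 0.333, so this test could not reach significance, and no other test between conditions was run. It treats the 4 lists as independent, although both conditions came from the same mice.

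The tissue label was checked with 10 genes of the skeletal muscle fibre, such as fast myosin *Myh4* and titin *Ttn*. Of these 4, 7, 6 and 7 had a peak in unstimulated 1, unstimulated 2, stimulated 1 and stimulated 2, where genes of like length would give 1.49, 3.50, 2.07 and 4.58. Their summed covered share was 1.19%, 9.72%, 6.38% and 14.9% in the same order, and the most covered of them was *Acta1*, skeletal actin, in unstimulated 2, at 90.0% of the gene. *Myh2* and *Mylpf*, further fibre genes, had no peak in any list. Unstimulated 1 was the lowest list for these genes although in length it was near stimulated 1, and the part of this in the results below was not tested. Marker genes of other cells also had peaks. The 3 endothelial genes had 0, 1, 0 and 3 with a peak against 0.574, 1.73, 0.795 and 2.15 from genes of like length, and the 3 macrophage and leukocyte genes 0, 0, 0 and 2 against 0.717, 1.63, 0.856 and 1.94. The 3 satellite cell genes had 0, 1, 1 and 1 against 0.388, 1.06, 0.518 and 1.40, the 3 fibroblast genes 0, 2, 1 and 1 against 0.308, 1.16, 0.488 and 1.65, and the 2 adipocyte genes 0, 0, 0 and 1 against 0.0560, 0.321, 0.133 and 0.625. The 2 Schwann cell genes had none in any list. The 2 neuronal genes, of 421.8 and 513.3 kb, had 1, 2, 2 and 2 against 1.46, 2.00, 1.65 and 2.00 from genes of like length.

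The sequences below are places on these genes where peaks were shared within a condition or lay over a promoter. Stretches shared only across the conditions were not chosen for printing. The first 3 are stretches that peaks of both lists of a condition share, the only such stretches on the 37 genes apart from one of 3 bp on *Atp2a1*. The last 4 are RefSeq promoters (GRCm38.p6, 250 bases before and 50 after a transcript start) that lay wholly or mostly under a peak. Those of *Ryr1*, *Jph2* and *Camk2d* met a peak in no list but the one named. All are on GRCm38/mm10 and are written along the strand of the gene, and capitals mark the E-box, CANNTG, the site bound by MyoD and its relatives. It reads as an E-box on either strand. Stretches over 300 bp are shown by their central 300 bases.
*Atp2a1*, chr7:126452702-126453001, minus strand, shared by both stimulated lists: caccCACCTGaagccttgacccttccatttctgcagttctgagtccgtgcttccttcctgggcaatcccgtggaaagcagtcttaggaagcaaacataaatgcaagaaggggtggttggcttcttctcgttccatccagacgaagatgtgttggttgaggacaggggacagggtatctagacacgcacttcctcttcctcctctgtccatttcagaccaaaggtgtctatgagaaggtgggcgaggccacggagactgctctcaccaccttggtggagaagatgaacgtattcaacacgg
*Ppp3ca*, chr3:136698807-136699106, plus strand, shared by both stimulated lists: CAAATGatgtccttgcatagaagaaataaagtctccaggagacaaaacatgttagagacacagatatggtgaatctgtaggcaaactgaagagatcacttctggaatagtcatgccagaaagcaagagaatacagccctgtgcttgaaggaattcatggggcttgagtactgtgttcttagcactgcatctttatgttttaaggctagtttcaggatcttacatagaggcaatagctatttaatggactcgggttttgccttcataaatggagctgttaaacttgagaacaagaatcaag
*Trdn*, chr10:33425984-33426040, plus strand, shared by both unstimulated lists: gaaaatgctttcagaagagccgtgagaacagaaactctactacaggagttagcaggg
*Pvalb* promoter, chr15:78204188-78204487, minus strand, under peaks of unstimulated 2 and stimulated 2: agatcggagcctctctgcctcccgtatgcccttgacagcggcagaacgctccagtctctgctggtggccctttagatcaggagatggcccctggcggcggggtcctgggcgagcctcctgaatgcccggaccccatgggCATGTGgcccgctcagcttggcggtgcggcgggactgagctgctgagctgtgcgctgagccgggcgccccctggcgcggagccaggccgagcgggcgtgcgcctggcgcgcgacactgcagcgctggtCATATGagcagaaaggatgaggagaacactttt
*Ryr1* promoter, chr7:29125102-29125401, minus strand, under a peak of stimulated 2: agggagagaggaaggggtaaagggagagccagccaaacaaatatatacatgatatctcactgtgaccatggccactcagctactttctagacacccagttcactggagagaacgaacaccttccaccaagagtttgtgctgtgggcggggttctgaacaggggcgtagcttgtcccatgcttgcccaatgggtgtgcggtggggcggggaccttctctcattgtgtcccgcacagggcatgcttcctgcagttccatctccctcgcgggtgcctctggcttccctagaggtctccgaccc
*Jph2* promoter, chr2:163397924-163398223, minus strand, under a peak of stimulated 1: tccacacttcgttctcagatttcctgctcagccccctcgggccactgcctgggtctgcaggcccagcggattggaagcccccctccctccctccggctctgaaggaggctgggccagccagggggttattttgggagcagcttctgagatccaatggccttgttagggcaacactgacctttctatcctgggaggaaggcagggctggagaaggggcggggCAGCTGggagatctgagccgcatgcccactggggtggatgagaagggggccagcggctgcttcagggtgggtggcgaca
*Camk2d* promoter, chr3:126596701-126597000, plus strand, under a peak of stimulated 2: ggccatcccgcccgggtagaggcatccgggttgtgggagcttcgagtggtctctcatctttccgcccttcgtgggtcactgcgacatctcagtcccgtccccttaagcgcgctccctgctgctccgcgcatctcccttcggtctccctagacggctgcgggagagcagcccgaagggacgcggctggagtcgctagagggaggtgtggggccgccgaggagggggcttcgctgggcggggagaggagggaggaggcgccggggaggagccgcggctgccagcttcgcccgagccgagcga

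Across the 37 genes, 8 had a peak in unstimulated 1, 22 in unstimulated 2, 13 in stimulated 1 and 30 in stimulated 2. Over the background genes a peak was found on 12.2%, 32.9%, 16.9% and 44.6%, and genes of like length would give 7.93, 18.7, 10.3 and 22.9 of 37. The observed number was therefore 1.01, 1.18, 1.27 and 1.31 times that from genes of like length, so that both stimulated lists lay above both unstimulated lists in this ratio, while the plain numbers overlapped between the conditions. The mean ratio was 1.09 ± 0.120 (SD, n = 2) in unstimulated and 1.29 ± 0.0294 (SD, n = 2) in stimulated muscle, and without unstimulated 1 the quotient of the means went from 1.18 to 1.09. Peaks covered 0.604% and 0.916% of the summed gene length in unstimulated and 0.362% and 2.99% in stimulated muscle, against 0.203%, 0.773%, 0.269% and 1.35% over the background. The 2 stimulated lists lay on either side of both unstimulated lists, so the covered share did not separate the conditions, and its quotient of 2.20 rested on stimulated 2, without which it was 0.476.

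When only peaks whose −log10 p reached 2.5 were counted, so that replicate lists were of nearly the same length, the conditions did not overlap in the number of these genes. A peak was then on 5 and 5 of the 37 genes in unstimulated and on 11 and 14 in stimulated muscle, against 8.43%, 9.22%, 12.1% and 14.9% of the background. From genes of like length 5.54 and 5.88 would come in unstimulated and 7.53 and 8.95 in stimulated muscle, so the observed numbers were 0.903 and 0.850 times that in the unstimulated lists and 1.46 and 1.56 times in the stimulated lists. The covered share still overlapped at this threshold, with 0.431% and 0.0437% in unstimulated and 0.269% and 0.606% in stimulated muscle. The genes with such a peak in both stimulated lists were 7, namely *Jph1*, *Jph2*, *Trdn*, *Asph*, *Atp2a1*, *Camk2d* and *Ppp3ca*, against 4.56% of the background and 3.33 from genes of like length. In both unstimulated lists there were 3, *Cacna2d1*, *Trdn* and *Camk2d*, against 2.71% of the background and 1.90 from genes of like length. With the 9094 strongest peaks of each list the numbers were 8 and 9 in unstimulated and 11 and 16 in stimulated muscle, against 12.2%, 13.8%, 14.5% and 17.9% of the background. Genes of like length would give 7.93 and 8.73 in unstimulated and 8.94 and 10.7 in stimulated muscle, so these numbers were higher in the stimulated lists as well. With a minimum of 3 few peaks were left, on 1, 2, 2 and 4 of the genes against 2.2%, 1.9%, 3.84% and 3.38% of the background, and no gene was in both stimulated lists. The numbers were then 0.768, 1.70, 0.819 and 1.95 times those from genes of like length. At this threshold these ratios overlapped between the conditions and their separation was lost. The covered share did not overlap there, with 0.00696% and 0.0181% in unstimulated and 0.0315% and 0.123% in stimulated muscle.

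**Figure D1:**
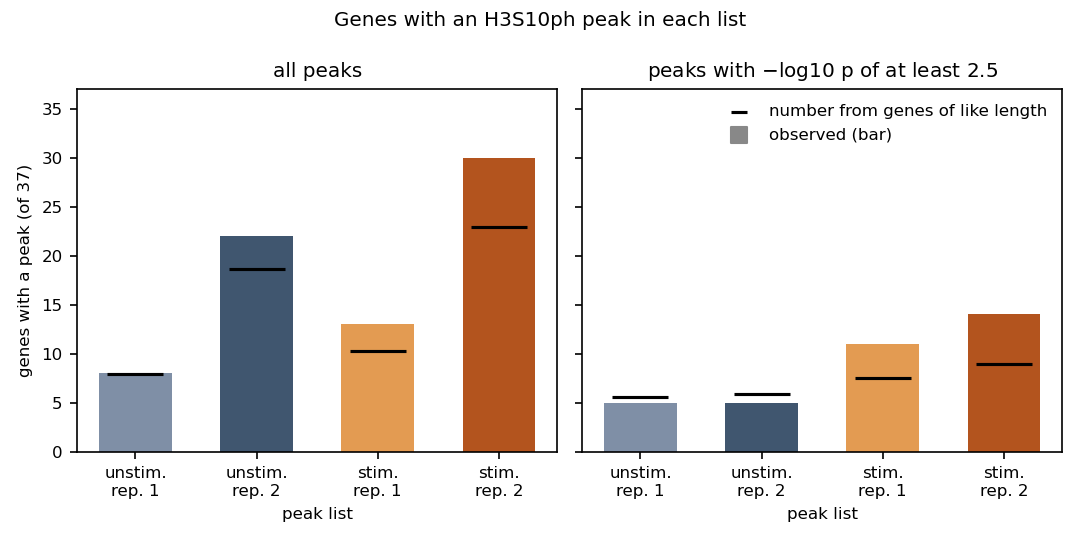
Number of the 37 genes with an H3S10ph peak in each list (bars, y axis) for all peaks (left) and for peaks whose −log10 p reached 2.5 (right), with the number that genes of like length would give as a black line. With all peaks the bars follow the length of the lists, at 8, 22, 13 and 30, and at the higher threshold both unstimulated bars are at 5 and the stimulated bars at 11 and 14.

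A peak in both stimulated lists was found on 13 genes, or 35.1%, against 13% of the background and 23.9% from genes of like length. They were *Ryr1*, *Jph1*, *Jph2*, *Trdn* and *Asph* of the release channel and its junction, *Atp2a1* and *Srl* of the store, the calcium buffer *Pvalb*, the kinase *Camk2d*, and *Ppp3ca*, *Ppp3cb*, *Nfatc1* and *Nfatc2* of the calcineurin pathway. A peak in both unstimulated lists was found on 6 genes, *Cacna2d1*, *Trdn*, *Atp2a1*, *Stim1*, *Camk2d* and *Ppp3ca*, or 16.2% against 8.36% of the background and 16.5% from genes of like length. The count in unstimulated muscle was thus close to that of genes of like length, with 6 observed against 6.12, while in stimulated muscle 13 stood against 8.85. *Trdn*, *Atp2a1*, *Camk2d* and *Ppp3ca* had a peak in all 4 lists, against 4.3% of the background and 3.30 from genes of like length, so this number was close to that of genes of like length. *Srl* and *Nfatc2* had a peak in both stimulated and in no unstimulated list, against 2.88% of the background and 1.29 from genes of like length, and leaving unstimulated 1 aside added no further gene. No gene had the mirrored pattern, against 0.721% of the background and 0.371 from genes of like length. The covered length in both stimulated lists was above that in both unstimulated lists for 5 genes, *Ryr1*, *Srl*, *Pvalb*, *Ppp3cb* and *Nfatc2*, against 5.23% of the background and 2.89 from genes of like length, and the reverse held for 0 genes against 1.51% and 0.879. The same 5 genes were above unstimulated 2 alone, against 5.81% of the background and 3.32 from genes of like length. The number depended on the other lists and on the threshold, with 10 genes without unstimulated 2, 27 without stimulated 1, 3 with lists of equal length and 0 at a −log10 p of 3. The background shares under these settings were 10.5%, 35.3%, 3.21% and 0.476%, and genes of like length would give 6.94, 17.1, 2.30 and 0.300. With lists of equal length the 3 genes were *Ryr1*, *Atp2a1* and *Nfatc1*, so of the 5 only *Ryr1* kept the separation there. Among peaks whose −log10 p reached 2.5 the genes with this separation were 4, none of them among the 5. They were *Jph1*, *Jph2*, *Asph* and *Atp2a1*, against 3% of the background and 2.20 from genes of like length. The reverse again held for 0 against 1.02% and 0.779. Without unstimulated 1, an alternative chosen after seeing the data, *Trdn*, *Camk2d* and *Ppp3ca* were added to these, making 7 against 3.64% of the background and 2.73 from genes of like length. Between the 2 shorter lists, those of replicate 1, the covered length was higher after stimulation for 10 genes and lower for 7, against 14.4% and 9.42% of the background and 8.35 and 5.91 from genes of like length, a comparison that cannot be made without unstimulated 1. Between the 2 longer lists it was higher for 28 and lower for 4, against 36.3% and 18.3% of the background and 17.7 and 8.94 from genes of like length. No peak in any list was found on 5 genes, *Cacng1*, *Jsrp1*, *Casq1*, *Hrc* and *Calm3*, against 41.6% of the background and 9.14 from genes of like length.

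**Figure D2:**
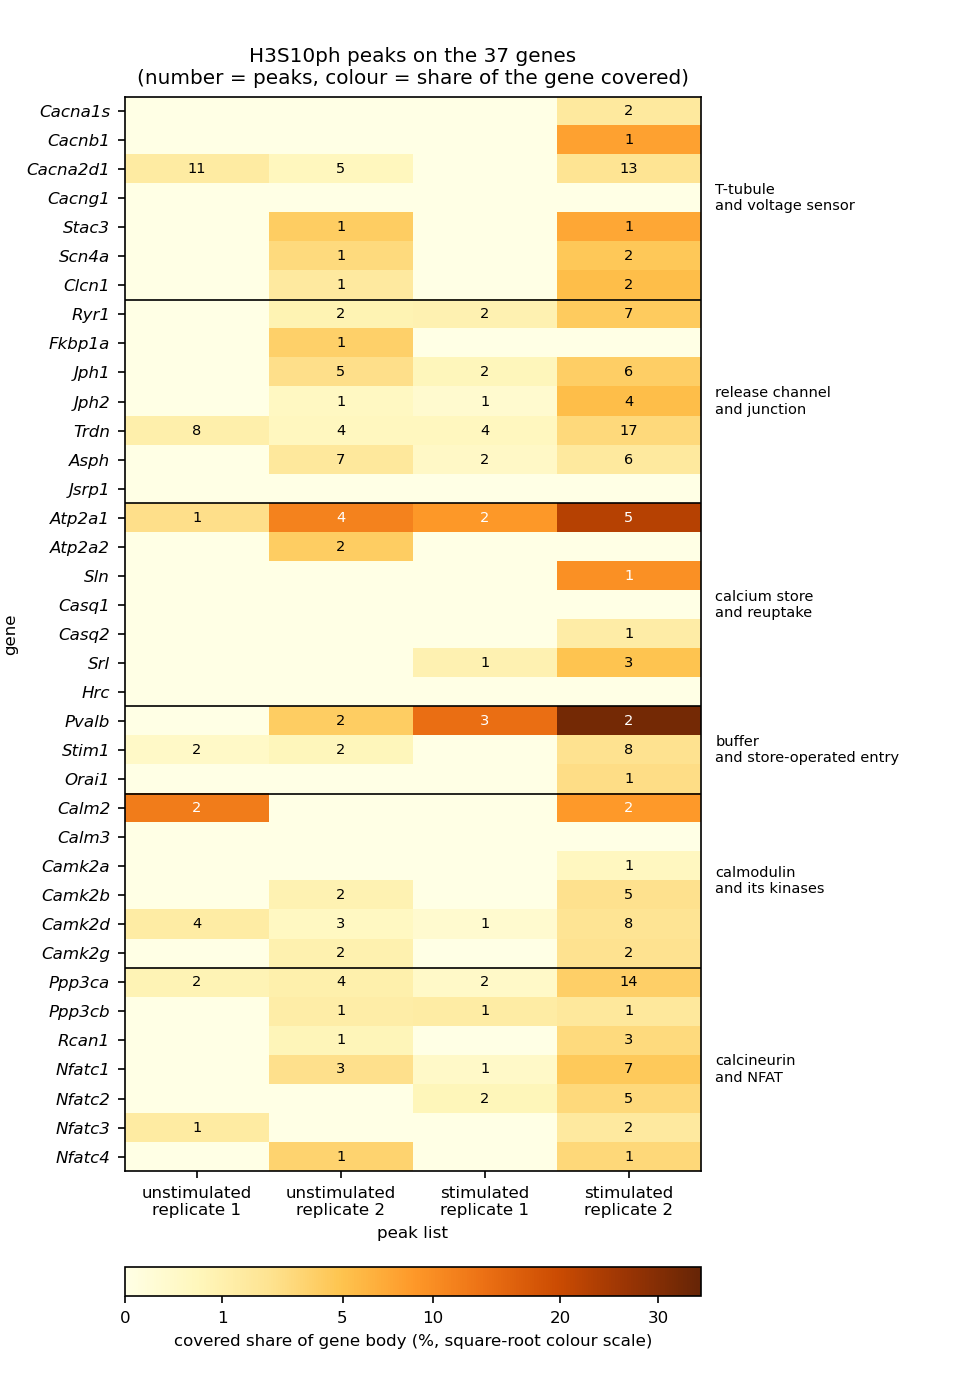
Peaks on each of the 37 genes (rows, grouped by role) in each of the 4 lists (columns), with the number of peaks written in the cell and the covered share of the gene body as colour on a square-root scale. *Pvalb* and *Atp2a1* are the most covered genes in stimulated 2, at 32.5% and 22.5%, and 5 rows, those of *Cacng1*, *Jsrp1*, *Casq1*, *Hrc* and *Calm3*, are empty in all lists.

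On the 7 genes of the T-tubule and voltage sensor stimulated 1 had no peak, and stimulated 2 had one on 6. A peak was on 1, 4, 0 and 6 of them, against 1.26, 2.93, 1.67 and 3.85 from genes of like length, and 0 of them had one in both stimulated lists, against 1.35. *Cacna1s*, the voltage-sensing pore subunit, had peaks only in stimulated 2, with 0, 0, 0 and 1045 bp covered. Its accessory subunit *Cacna2d1*, the longest of the 37 genes at 439.8 kb, had 11, 5, 0 and 13 peaks in introns that covered 6193, 2253, 0 and 9248 bp. It was the one gene of the group in both unstimulated lists, and 82.1% of the genes of like length had a peak in stimulated 1, where it had none. In unstimulated 1 it was covered by 1.41% of its length, and 1 of 224 genes of like length was covered at least as much. The cytoplasmic subunit *Cacnb1* had 1 peak, of 1688 bp in stimulated 2, which began 638 bp after an annotated start shared by 3 of its transcripts. *Stac3*, an adaptor that links the voltage sensor to the release channel, had 0, 287, 0 and 526 bp, and the 2 peaks shared 287 bp of an intron. The sodium channel *Scn4a*, which carries the action potential, had 0, 994, 0 and 1537 bp, and the chloride channel *Clcn1*, which damps it, 0, 449, 0 and 1566 bp. For these 3 genes all peaks were in the long replicate 2 lists, and the stimulated value was the higher one. *Cacng1*, another accessory subunit, had no peak in any list.

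The 7 genes of the release channel and its junction held 5 of the 13 genes with a peak in both stimulated lists, where genes of like length would give 2.55. A peak was on 1, 6, 5 and 5 of the 7, against 2.23, 4.49, 2.74 and 5.10 from genes of like length. *Ryr1*, the ryanodine receptor that releases calcium, was covered over 0 and 955 bp in the unstimulated and over 1075 and 5091 bp in the stimulated lists, so the conditions did not overlap (difference of means 2606 bp, exact permutation p = 0.333, n = 2 per condition). In stimulated 2 it had 7 peaks, of which one of 2443 bp held the start and reached 451 bp into the gene. Another 4 met exons over part of their length. In stimulated 1 the stronger of its 2 peaks, with a −log10 p of 3.52, lay in an intron at 90.4 kb from the start and was 94.0% repeat-masked sequence. No peak of *Ryr1* overlapped a peak of another list. The calcium store is held against the T-tubule by junctophilins, and both of their muscle genes were in the group. *Jph1* had 0 and 3265 bp in the unstimulated and 748 and 5258 bp in the stimulated lists, so the conditions overlapped. It had the second strongest peak of stimulated 2 on the 37 genes, a 1001-bp peak in an intron with a 2.96-fold enrichment and a −log10 p of 4.77. *Jph2* had 0, 246, 99 and 3360 bp. Its peak in stimulated 1 was 1798 bp wide and lay over the start, with 99 bp inside the gene, while in stimulated 2 its 4 peaks lay in the gene and none at the start. *Trdn*, triadin, which anchors the calcium-binding protein of the store to the receptor, had 8, 4, 4 and 17 peaks that covered 4150, 1887, 1875 and 11744 bp of a gene of 396.2 kb. Its values overlapped between the conditions, the lowest and the highest both being stimulated. *Asph*, whose gene also gives the junctional protein junctin, had 0, 3579, 705 and 3538 bp. *Fkbp1a*, a protein bound to the receptor, had a peak of 712 bp in unstimulated 2 only, and *Jsrp1*, a junctional protein, had none.

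Among the 7 genes of the calcium store and reuptake, a peak was on 1, 2, 2 and 4, against 0.657, 2.21, 0.947 and 3.09 from genes of like length. *Atp2a1*, the calcium pump of fast fibres, was covered over 420, 1955, 1528 and 3874 bp of its 17.3 kb, or 2.43%, 11.3%, 8.86% and 22.5%. The stimulated lists were not both above the unstimulated ones, since unstimulated 2 exceeded stimulated 1. In every list the gene was covered more than most genes of its length, but most of those had no peak. Of 2320 such genes 71, 13, 9 and 4 were covered at least as much in unstimulated 1, unstimulated 2, stimulated 1 and stimulated 2. A peak of any size was on 5.78%, 23.0%, 9.83% and 38.6% of them. It also held the most stretches shared between lists. A stretch of 482 bp over an exon was common to both stimulated lists, and its central part is the first sequence above. Stretches of 649 and 300 bp were common to unstimulated 2 and stimulated 2, and 57 bp to unstimulated 2 and stimulated 1. The end of *Atp2a1* overlaps the gene *Rabep2*, and the one peak of unstimulated 1, 1017 bp wide with 420 bp in *Atp2a1*, lies across that end, so it cannot be told apart which gene it belongs to. *Srl*, sarcalumenin, a calcium-binding protein of the store, had 0 and 0 bp in the unstimulated and 547 and 2973 bp in the stimulated lists, which did not overlap. Its strongest peak, in stimulated 2, was 1239 bp wide in an intron with a −log10 p of 2.94. *Sln*, sarcolipin, a small inhibitor of the pump, had 1 peak of 422 bp in stimulated 2 that began 160 bp after the start and covered 9.60% of the gene, and *Casq2*, a calsequestrin, had 1 of 740 bp in the same list. *Atp2a2*, the pump of slow fibres, had 2 peaks and 1931 bp in unstimulated 2 and none in the other lists. *Casq1*, the calsequestrin of fast fibres, and *Hrc*, another calcium-binding protein of the store, had no peak, where 26.5% and 12.3% of the genes of like length had one in the longest list.

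*Pvalb*, parvalbumin, the soluble calcium buffer of fast fibres, had the largest covered share of the 37 genes in both stimulated lists. In the unstimulated lists the largest shares were those of *Calm2* and *Atp2a1*, at 12.2% and 11.3%. Peaks covered 0 and 615 bp of the 15.3 kb of *Pvalb* in the unstimulated and 2118 and 4971 bp in the stimulated lists, or 0% and 4.02% against 13.9% and 32.5%. The conditions did not overlap, with a difference of means of 3237 bp (exact permutation p = 0.333, n = 2 per condition). With unstimulated 1 set aside both stimulated values still lay above the unstimulated one. The separation of *Pvalb* was lost with lists of equal length. It was also lost at a −log10 p of 2.5, where the gene had a peak in stimulated 1 only. Among 2301 genes of like length 174 were covered at least as much in unstimulated 2, 2 in stimulated 1 and 1 in stimulated 2. The peaks of the stimulated lists lay in different places. In stimulated 2 they were 2408 and 2563 bp wide and ended 6049 bp from the start of the gene, and in stimulated 1 there were 3, of 514, 757 and 847 bp, between 6063 and 14434 bp from the start, so no base was shared. Both peaks of unstimulated 2 lay within the first wide peak of stimulated 2, and one of them holds a transcript start 2163 bp inside the gene, whose promoter is printed above. All these peaks were weak, with −log10 p between 2.13 and 2.82. *Stim1*, the calcium sensor of the store, had 497 and 961 bp in the unstimulated and 0 and 3749 bp in the stimulated lists, so the stimulated values lay on both sides of the unstimulated ones. *Orai1*, the channel that it opens, had 1 peak, of 394 bp in stimulated 2, wholly in repeat-masked sequence.

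**Figure D3:**
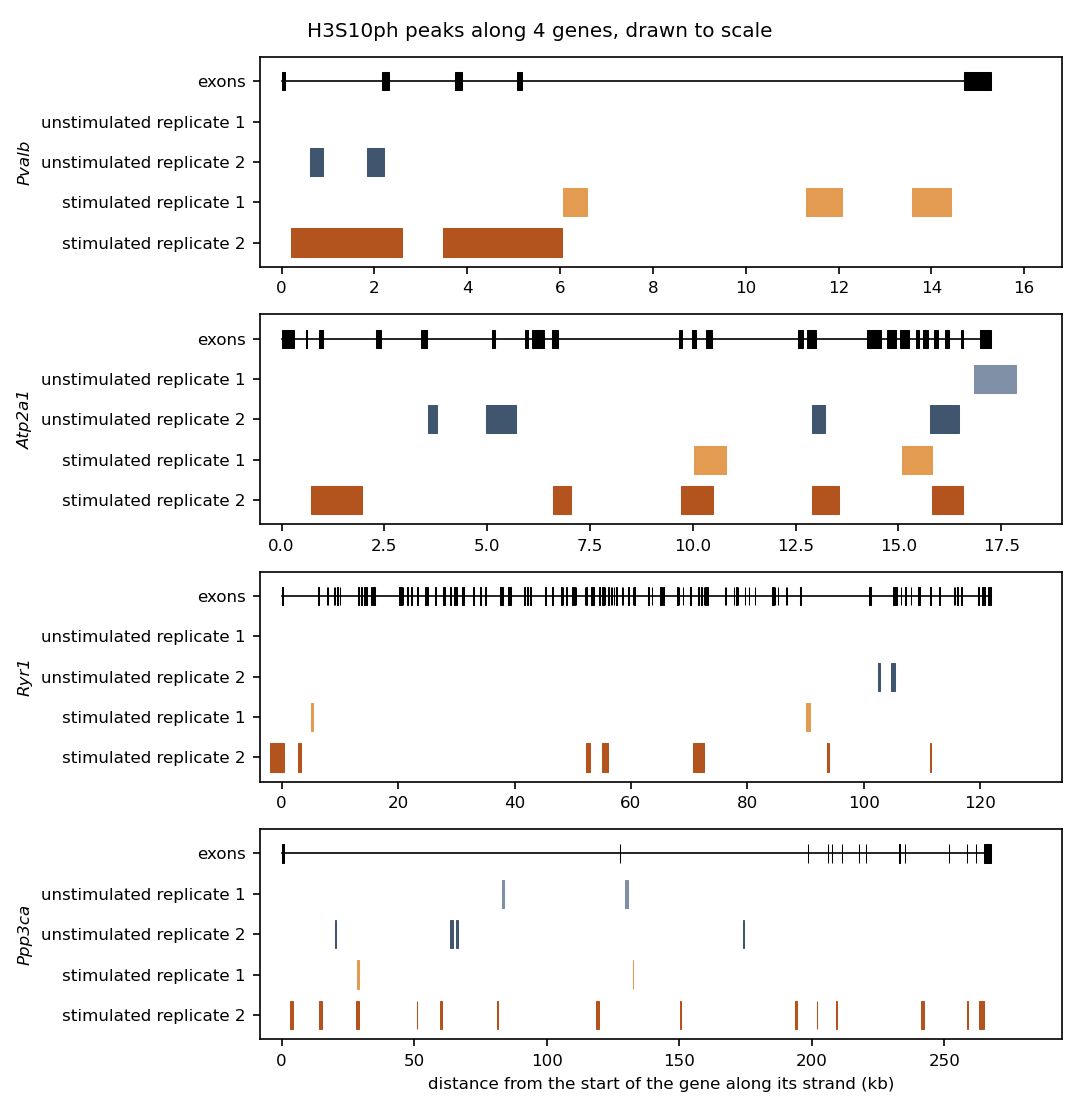
Peaks of the 4 lists along *Pvalb*, *Atp2a1*, *Ryr1* and *Ppp3ca*, with exons as black boxes in the top row of each panel and the distance from the start of the gene in kb on the x axis. Peaks of the 4 lists mostly lie at different places of a gene, and the shared stretches begin at 10016, 12907, 15757 and 15811 bp on *Atp2a1*, at 623 and 1841 bp on *Pvalb* and at 28600 bp on *Ppp3ca*.

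The 6 genes of calmodulin and its kinases had a peak on 2, 3, 1 and 5, against 1.31, 3.20, 1.71 and 3.90 from genes of like length. *Calm2*, one of the genes for calmodulin itself, had 2 peaks in unstimulated 1 and 2 in stimulated 2, covering 1646 and 1180 bp and sharing 590 bp of an intron, and none in the other lists. In unstimulated 1 it was covered by 12.2%, and 2 of 2222 genes of like length were covered at least as much. The calmodulin gene *Calm3* had no peak. *Camk2d*, the gene of a CaM kinase II subunit, had 4, 3, 1 and 8 peaks over 3238, 1004, 426 and 5063 bp, again with a stimulated list lowest and a stimulated list highest. A 1136-bp peak of stimulated 2 covered its start region, with the starts of 9 annotated transcripts inside it. *Camk2g*, the gene of another subunit, held the strongest peak of all 243. This peak of stimulated 2 was 633 bp wide in an intron, with a 4.20-fold enrichment and a −log10 p of 9.18, and ranked 17 of the 40683 peaks of its list by p. Of its length 45.0% was repeat-masked. A weaker peak of unstimulated 2, with a 2.39-fold enrichment and a −log10 p of 2.85, shared 142 bp with it, and neither of the replicate 1 lists had a peak on the gene. *Camk2b*, a further kinase gene, had 0, 803, 0 and 2191 bp and *Camk2a* 0, 0, 0 and 263 bp.

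The 7 genes of calcineurin and NFAT held 4 of the 13 genes with a peak in both stimulated lists, where genes of like length would give 2.17. A peak was on 2, 5, 4 and 7 of them, against 1.95, 4.52, 2.44 and 5.34 from genes of like length. *Ppp3ca*, a catalytic subunit of calcineurin, had 2, 4, 2 and 14 peaks over 2018, 2717, 721 and 10219 bp of a gene of 267.6 kb. The 2 stimulated lists shared 466 bp of an intron, beginning 28600 bp from the start, with a −log10 p of 2.58 and 2.81, and no unstimulated peak met that stretch. *Ppp3cb*, another catalytic subunit, had 1 peak each in 3 lists, with 0 and 562 bp in the unstimulated and 617 and 784 bp in the stimulated lists. These values did not overlap, but the 3 peaks were centred 43.0, 29.0 and 3.64 kb from the start and shared no base. *Nfatc2*, an NFAT transcription factor, had 0 and 0 bp in the unstimulated and 740 and 3750 bp in the stimulated lists, with peaks in introns throughout, one of them 2011 bp wide. At its length of 125.2 kb, 81.4% of genes had a peak in unstimulated 2, where *Nfatc2* had none. *Nfatc1*, a second NFAT gene, had 0, 2518, 293 and 4723 bp, *Nfatc3* 1010, 0, 0 and 1112 bp, and *Nfatc4* 0, 370, 0 and 325 bp, all with overlap between the conditions. *Rcan1*, whose product inhibits calcineurin, had 0, 504, 0 and 2272 bp. A peak of 1049 bp in stimulated 2 lay over a transcript start 12392 bp inside the gene, and the RefSeq promoter windows of the gene, which lie elsewhere, met no peak in any list.

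Peaks on these genes lay mostly in introns, as they did on genes at large. Of the 31, 55, 24 and 133 peaks 0, 5, 2 and 10 were within 1000 bp of a transcript start of the gene, 3, 5, 1 and 26 met an exon elsewhere and 28, 45, 21 and 97 lay in introns. Promoter peaks were thus 0%, 9.09%, 8.33% and 7.52% of the peaks on these genes against 2.61%, 4.98%, 6.86% and 9.76% over the background. The 10 promoter peaks of stimulated 2 were on *Cacnb1*, *Ryr1*, *Jph1*, *Atp2a1* (2 peaks), *Sln*, *Pvalb*, *Camk2d*, *Rcan1* and *Nfatc4*, and the 2 of stimulated 1 were on *Jph2* and *Atp2a1*, the latter at a short transcript near the end of the gene, 15463 bp from the start. Those of unstimulated 2 were on *Atp2a1*, *Pvalb* (2 peaks), *Camk2g* and *Nfatc4*. *Atp2a1* was the one gene with promoter peaks in both stimulated lists. Its peak of unstimulated 2 and 1 of its 2 peaks of stimulated 2 were at the start of that same short transcript. The *Camk2g* peak was likewise at a short transcript, which begins 54721 bp from the start of the gene. Exons took 8.44% of the covered length in stimulated 2 and between 4.43% and 5.95% in the other lists, against 7.34% to 10.1% over the background. Exons make up 5.47% of the summed length of the 37 genes and 7.14% of that of the background genes. The median peak was wider than that on the background genes in every list, at 644, 449, 472.5 and 662 bp against 378.5, 427, 378 and 488 bp, and the margin was smallest in unstimulated 2. Peaks over 1000 bp numbered 5, 3, 1 and 30, or 16.1%, 5.45%, 4.17% and 22.6% of those on these genes, against 5.95%, 7.16%, 7.59% and 11.9% over the background. The share was above the background in unstimulated 1 and stimulated 2. In the other lists it was below and rested on 3 and 1 peaks, and these differences were not tested. The widest 4, all in stimulated 2, were those of 2563 and 2408 bp on *Pvalb*, 2443 bp on *Ryr1* and 2011 bp on *Nfatc2*.

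The median GC content of the peaks on these genes was 36.9% and 44.4% in the unstimulated and 49.0% and 45.4% in the stimulated lists, beside 38.1%, 43.9%, 44.5% and 44.5% over all autosomal peaks. Unstimulated 1 was the lowest list both on these genes and overall. Repeat-masked sequence made up a median of 21.5%, 19.6%, 16.3% and 15.5% of the peaks on these genes, against 20.9%, 20.1%, 24.0% and 19.2% over all autosomal peaks. Of the 37 genes 23 had an entry in the RefSeq promoter table, with 29 windows of 300 bp, and 5 windows on 4 genes were met by a peak, namely *Ryr1*, *Pvalb*, *Camk2d* and 2 overlapping windows of *Jph2*. The share of all promoters met by a peak was not counted. An E-box was in 18 of the 29 windows and in 72.3% of all 32851 promoters. The NFAT core, GGAAA, searched on both strands, was in 16 of the 29 and in 61.3% of all promoters. The AP-1 motif TGANTCA and the CRE motif TGACGTCA were each in 1 of the 29, both in the same window of *Rcan1*, and in 7.81% and 1.79% of all promoters. The MEF2 motif was in 1 and the CArG box, the site of SRF, in 0 of the 29, against 0.557% and 1.63%. Each motif was searched by itself on both strands and matches of different motifs may overlap, and a match is a description of the letters only.

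Peaks rarely recurred at the same place. The 2 stimulated lists shared 3 stretches on these genes, on *Atp2a1* and *Ppp3ca*, which were met by 12.5% of the peaks of stimulated 1 and 2.26% of those of stimulated 2, against 4.74% and 1.03% of the peaks on background genes. The 2 unstimulated lists shared 1, the 57 bp of *Trdn* printed above, met by 3.23% and 1.82% of their peaks, against 2.66% and 0.722%. Of the pairs across the conditions, unstimulated 2 and stimulated 2, the long lists, shared 6 stretches on *Stac3*, *Atp2a1*, *Pvalb* and *Camk2g*, unstimulated 1 and stimulated 2 shared 4 on *Cacna2d1*, *Calm2* and *Camk2d*, unstimulated 2 and stimulated 1 shared 1 and the remaining pair none. Those of the first pair were met by 10.9% of the peaks of unstimulated 2 and 3.76% of those of stimulated 2, against 3.62% and 2.29% over the background. Those of the second pair were met by 12.9% of the peaks of unstimulated 1 and 3.01% of those of stimulated 2, against 3.46% and 0.593%, so in these 2 pairs the shares across conditions were of the size of that between the stimulated lists. The 1 stretch of the third pair was met by 1.82% of the peaks of unstimulated 2 and 4.17% of those of stimulated 1, against 1.15% and 3.32%. The 13 genes with a peak in both stimulated lists therefore had, on 11 of them, peaks at different places in the 2 lists.

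Most of the peaks were weak. The median −log10 p of the peaks on these genes was 2.58, 2.17, 2.60 and 2.24, close to the median of each whole list, and the highest was 3.38 on *Cacna2d1* in unstimulated 1, 3.09 on *Camk2d* in unstimulated 2, 3.79 on *Trdn* in stimulated 1 and 9.18 on *Camk2g* in stimulated 2. A q-value below 1 was given to 0, 0, 2 and 3 of them, while 96.0%, 99.0%, 88.7% and 98.9% of the peaks of the whole lists had a q-value of 1.

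**Figure D4:**
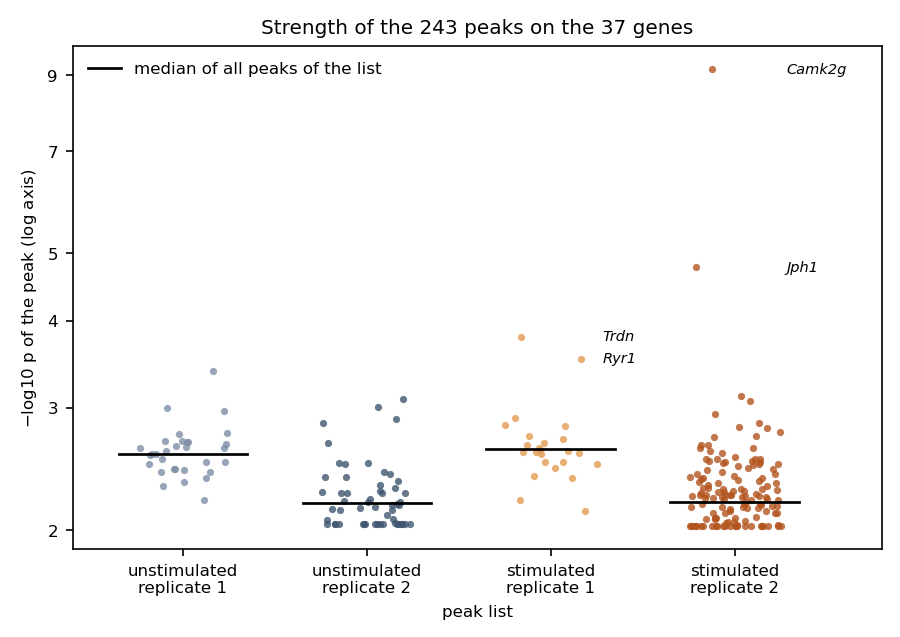
The −log10 p (y axis, log scale) of each of the 243 peaks on the 37 genes by list, with the median of all peaks of the list as a black line. The points lie around the median of their list, with *Trdn* and *Ryr1* in stimulated 1 at 3.79 and 3.52 and *Jph1* and *Camk2g* in stimulated 2 at 4.77 and 9.18 above the rest.

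Other genes of calcium handling outside the 37 were given by a list of 72 symbols, of which 71 were found in the annotation. They had a peak on 15, 37, 26 and 54, and for the 69 autosomal ones the numbers were 14, 37, 26 and 54 against 16.4, 34.6, 20.7 and 41.9 from genes of like length. A peak was in both stimulated lists on 24, against 13% of the background and 18.3 from genes of like length, and in both unstimulated lists on 14, against 8.36% and 13.7. The covered length of both stimulated lists was above that of both unstimulated lists for 8, among them *Itpr3*, *Slc8a3*, *Tmem38b*, *Camkk1*, *Micu2* and *Mylk2*, and the reverse held for 1, *Atp2b1*, a calcium pump of the cell membrane. The background shares were 5.23% and 1.51%, and genes of like length would give 4.85 and 1.64. *Mylk2*, the skeletal myosin light chain kinase, which calmodulin activates, was covered by 0% and 0% in the unstimulated and 8.31% and 7.19% in the stimulated lists. *Ryr2*, the cardiac receptor gene of 553.8 kb, had 2, 9, 4 and 6 peaks, and its covered length of 581, 3002, 1495 and 2678 bp overlapped between the conditions. The release channels *Itpr1* and *Itpr2* and the exchanger *Slc8a1* likewise had peaks in both stimulated lists with overlapping values. The remaining genes with a peak in both stimulated lists were *Bin1*, *Dysf*, *Ppp3cc*, *Rcan2*, *Cabin1*, *Cacna1c*, *Cacnb2*, *Cacnb4*, *Cacna2d2*, *Mcu*, *Homer1* and *Homer2*, and those with a peak in both unstimulated but not in both stimulated lists were *Ryr3*, *Atp2b1*, *Stim2*, *Ppp3r1*, *Camk4*, *Nfat5* and *Cacna2d3*.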

How the data were processed

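H3S10ph ChIP-seq was measured in 4 pooled gastrocnemius samples. According to the submitters' processing notes and the study's methods, the authors mapped reads to mm10 (BWA 7.12), removed multi-mapping reads (version 2.4.0 of bamtools, listed as SAMtools in the notes), sampled the replicates down to equal read numbers and then called broad peaks per sample against input DNA with MACS2 2.1.1. The deposited lists give for each peak a score, a fold enrichment (a ratio to the local background) and p- and q-values as −log10. The deposited score was not used. No counts are given, so precision is limited by 2 samples per condition, and where nothing else is said all peaks entered. Peaks were intersected with GENCODE M21 protein-coding genes (overlap of at least 1 bp) in Python 3.11.15 with numpy 2.4.6 and scipy 1.17.1, tested on simulated peaks, and figures drawn with matplotlib 3.10.9. A peak counted as promoter within 1000 bp of a transcript start, otherwise as exon or intron. The number from genes of like length is the sum, over the genes, of the share of autosomal protein-coding genes of 0.8 to 1.2 times the length with a peak. Conditions were compared by values per list. The genes, lists and thresholds were chosen with earlier results of these data known. All 37 genes are named, in full where they had a peak in both lists of a condition, a promoter peak, separated values, the strongest peak of a list or the largest covered share, and other calcium genes where a peak was in both lists of a condition, except for a few items that are not reported here. Genes overlapping another protein-coding gene were *Clcn1*, *Asph*, *Atp2a1* and *Nfatc3*. Alternatives were thresholds of 2.5 and 3, equal lists of 9094 peaks, bodies extended by 5000 bp, overlap of 50% of the peak, merging within 1000 bp, other comparison genes, leaving out 1 replicate at a time, and ratios formed within a replicate number.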

Additional observations from a re-analysis of the deposited data

How the results depend on the processing

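The quotient of stimulated to unstimulated means was 1.43 for the number of genes with a peak, 2.20 for the covered share and 1.18 for the number over that from genes of like length. When 1 replicate was left out it lay between 0.867, without stimulated replicate 2, and 2.69 for the number of genes, with 0.977 without unstimulated replicate 1, between 0.476 and 3.93 for the covered share and between 1.09 and 1.28 for the number over genes of like length. The first 2 quotients therefore turned direction with the replicate left out and the third did not. With peaks whose −log10 p reached 2.5 the third was 1.73 and with lists of equal length 1.34, while the covered share gave 1.84 and 1.28. At 3 the covered share gave 6.17 and did not overlap between the conditions, while the third gave 1.12, with overlap. The genes with a peak in both stimulated lists fell from 13 to 7 at 2.5 and 0 at 3, those in both unstimulated lists from 6 to 3 and 1, since fewer peaks enter. The genes with separated covered length went from 5 to 0 at 3 and to 3 with equal lists, and ranged from 5 to 27 with 1 replicate left out, 10 without unstimulated replicate 2 and 27 without stimulated replicate 1. Of the 3 with equal lists only *Ryr1* was among the 5, and the 4 at 2.5 were all other genes. With the replicate block, the geometric mean of the quotients within replicate numbers, the values were 1.49, 1.40 and 1.18. The covered share was 0.599 within replicate 1 and 3.26 within replicate 2, so the paired values did not share a direction, and although both conditions came from the same mice, it is not stated that pools with the same number held the same ones. The extended gene bodies, the 50% overlap and the merging kept the direction of all 3 quotients, and the other comparison genes that of the third, for which alone they were run. The depth of the samples is not in the lists, although replicates had been sampled down to equal read numbers. A missing peak in a short list does not show that the mark is absent.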
